A study of Mus musculus with 6 samples.

Results

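The 9 genes that encode granule proteins and receptors of eosinophils are described here in bone marrow RNA from a murine MLL-AF9 leukemia: Prg2, Prg3 and Epx (granule proteins), Ear1, Ear2 and Ear6 (granule ribonucleases), and Siglecf, Il5ra and Ccr3 (surface receptors). The members were given as a list of names, and all 9 were found among the 55487 genes of the deposited table. Their Ensembl identifiers were mapped to symbols with the GENCODE annotation. The study asked what loss of BRD9, a bromodomain subunit of the non-canonical BAF chromatin remodeler, does to established leukemia cells. The MLL-AF9 fusion (MA9 in the labels) transforms myeloid progenitors and gives rise to acute leukemia in mice. Donor cells of both groups were CD45.2(+) Mx1-Cre Brd9fl/fl MA9 cells on the C57BL/6 strain and were given to CD45.1(+) CD45.2(-) recipients, which were 6-week-old irradiated mice per the methods, so that host blood cells may remain. Recipients then received 3 doses of PBS (3 libraries) or of pIpC at 20 mg/kg (3 libraries), and GFP+ cells of femora and tibiae were collected 10 days after the injections. Cre is driven by the Mx1 promoter, which responds to the interferon that pIpC, a double-stranded RNA mimic, induces. Both groups carry the floxed alleles and Mx1-Cre, and no group with pIpC but without Cre was analysed here, so that effects of pIpC and of the deletion cannot be told apart. Neither the labels nor the methods say whether the cells of the 2 groups came from a single leukemia clone, and the libraries are not stated to be from separate animals, so that p-values measure the spread between these libraries only.

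Eosinophils are granulocytes that arise in the marrow under GATA-1, C/EBP factors and PU.1, and interleukin 5 drives their expansion. Their large granules hold major basic protein, a peroxidase and cationic ribonucleases, which are made while the cell is still an immature precursor. At the surface the interleukin 5 receptor, the eotaxin receptor CCR3 and the sialic acid-binding lectin Siglec-F mark the maturing cell. Several of these genes are not confined to eosinophils: mouse macrophages of some tissues carry Siglec-F, basophils share CCR3 and the major basic protein gene, and immature myeloid cells can express single granule genes.

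Each library held between 19277439 and 23586722 reads on genes, recovered from the normalized counts. The targeted gene, Brd9, was not lower in the libraries labelled pIpC: its normalized count was 1926.8, 1946.4 and 1631.9 in the PBS libraries and 2036, 2263 and 2011.4 in those labelled pIpC, which gave a log2 fold change with its standard error (SE) of 0.20 ± 0.13 (limma adjusted p = 0.259). This count covers the whole gene, retained exons included, and not only the exons that the deletion removes, so that it checks the labels only in part. Directions are therefore given by the label. PBS replicate 3 stood apart from the other PBS libraries. Among the 15020 genes tested, 6592 lay more than 1.5-fold outside both other PBS values in replicate 3, against 858 in replicate 1 and 804 in replicate 2, so that each member's result is also given without that library.

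The 3 Ear members belong to the eosinophil-associated ribonucleases, a rodent family of near-identical copies in the RNase A superfamily, and their likeness decides how well reads can be assigned to each. Their open reading frames are 468, 471 and 468 bases long in Ear1, Ear2 and Ear6. Ear1 and Ear2 shared 95.12% of aligned coding bases, Ear1 and Ear6 87.39%, and Ear2 and Ear6 87.69%. The first 90 coding bases of each, from GENCODE release M21 on GRCm38, are shown to make this visible, with the 11 sites at which the 3 genes are not all alike in capitals.
Ear1: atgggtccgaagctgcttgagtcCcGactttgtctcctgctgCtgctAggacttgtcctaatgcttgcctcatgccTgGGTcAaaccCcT
Ear2: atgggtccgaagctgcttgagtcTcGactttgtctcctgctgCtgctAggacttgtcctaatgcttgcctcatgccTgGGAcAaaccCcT
Ear6: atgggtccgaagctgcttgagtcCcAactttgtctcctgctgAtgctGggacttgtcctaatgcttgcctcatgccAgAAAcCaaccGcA
In this stretch most of the capitals set Ear6 apart, and few separate Ear1 from Ear2. Of all 100-base windows of the transcript, 23.94% of Ear1 (147 of 614) also occurred in a transcript of another gene (Ear-ps9 or Ear10), as did 13.87% of Ear2 (86 of 620; Ear-ps2 or Ear10), and none of the windows of Ear6 or of the 6 other members. Counts of Ear1 and Ear2 are therefore uncertain as to their source, and those of Ear6 are less so.

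The likeness extends upstream. Promoter windows of 250 bases before the start site were taken from RefSeq (GRCm38.p6) for the 8 members that had an entry; Prg2 had none. The windows of Ear1 (chr14:43819640-43819889, minus strand) and Ear2 (chr14:44102404-44102653, plus strand) were identical at 246 of 248 overlapping bases (99.19%), while Ear6 matched Ear1 at 85.14% and Ear2 at 85.43%. The RefSeq start of Ear1 lies within the longer GENCODE span of that gene. The window of Ear6 (chr14:51853518-51853767) runs past the GENCODE start of its exon at 51853699, so that its matches include exon bases of that annotation. The windows of Ear1 and Ear2 are printed because the 2 genes were counted at very different levels, and the 2 bases that differ are in capitals.
Ear1: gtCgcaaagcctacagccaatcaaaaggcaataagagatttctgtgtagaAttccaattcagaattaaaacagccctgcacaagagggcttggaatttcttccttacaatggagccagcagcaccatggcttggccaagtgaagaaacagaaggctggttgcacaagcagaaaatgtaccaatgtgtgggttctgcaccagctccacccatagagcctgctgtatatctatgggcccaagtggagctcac
Ear2: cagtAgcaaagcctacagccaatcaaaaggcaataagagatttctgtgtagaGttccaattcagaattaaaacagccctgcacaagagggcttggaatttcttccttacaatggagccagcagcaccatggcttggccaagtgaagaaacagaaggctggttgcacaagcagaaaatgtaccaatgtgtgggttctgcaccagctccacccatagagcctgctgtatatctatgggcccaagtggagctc
The windows carry the same letters over nearly their whole length and are offset by a few bases at either end.

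In all, 5 short motifs were searched on both strands of these windows. The letters GATAA, bound by GATA factors, were found in the windows of Prg3, Il5ra and Ccr3 (3 of 8 members, 37.5%), against 22.58% of all 32851 promoter windows. The letters TTGCNNAA, a core of C/EBP sites, were found in Ear1 and Ear2, which share them as copies (2 of 8), against 9.564%. GAGGAAG, a PU.1 core, was found in Siglecf (10.61% of all windows), TGTGGT, a RUNX core, in Prg3 (14.05%), and TTCNNNGAA, the letters of STAT sites, in none of the 8 (7.02%). The 5 motifs do not overlap each other in these windows. The windows of Prg3 (chr2:84987965-84988214, plus strand) and Ccr3 (chr9:124021721-124021970, plus strand) are printed because both hold GATAA letters and the 2 genes went in opposite directions, with the match in capitals (TTATC is GATAA on the other strand).
Prg3: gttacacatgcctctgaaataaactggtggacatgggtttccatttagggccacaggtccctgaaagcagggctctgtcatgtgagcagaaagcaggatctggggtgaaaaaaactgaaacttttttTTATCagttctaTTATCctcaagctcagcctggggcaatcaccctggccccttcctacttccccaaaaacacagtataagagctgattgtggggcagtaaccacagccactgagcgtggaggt
Ccr3: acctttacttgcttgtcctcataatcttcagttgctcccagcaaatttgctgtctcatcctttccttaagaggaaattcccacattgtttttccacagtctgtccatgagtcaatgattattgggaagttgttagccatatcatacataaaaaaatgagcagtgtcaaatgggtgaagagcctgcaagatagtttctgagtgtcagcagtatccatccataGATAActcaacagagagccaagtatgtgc
Prg3 holds 2 matches, which begin 123 and 111 bases upstream of the start, and Ccr3 holds 1, which begins 29 bases upstream. A match of letters is a description of the window and not of binding.

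The 9 genes did not move as a set. Of the members, 8 passed the filter on low values (an average of 10 or more normalized counts over all libraries). They were tested with limma after transformation to log2(normalized count + 1), which understates changes of low genes. Of these 8, 4 were higher in the libraries labelled pIpC (Epx, Ear2, Ear6 and Ccr3), 2 were lower (Prg3 and Siglecf), and 2 did not pass the Benjamini-Hochberg adjusted p threshold of 0.1 (Prg2 and Il5ra). Ear6 and Ccr3, at or near 0 in PBS, reached the average of 10 only through the libraries labelled pIpC. A call as lower was not open to them, so that their calls as higher are descriptive. The same holds for genes of the related lists that were near 0 in PBS. Over all 15020 genes tested, 45.3% passed, 25.0% as higher and 20.4% as lower, so that having passed does not by itself set a gene apart here. The median log2 fold change of the tested members was 1.24 against 0.015 over all genes. It includes Ear6 and Ccr3, which passed the filter only through their pIpC values, so that it does not show a shift of the set. Under quantile normalization the higher genes were 44.3% of all calls in place of 55.1%, and under scaling to library totals they were 41.5%, while 4 members were higher and 2 lower under both. Fewer cells of a type and less RNA per cell cannot be told apart in bulk libraries.

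**Figure D1:**
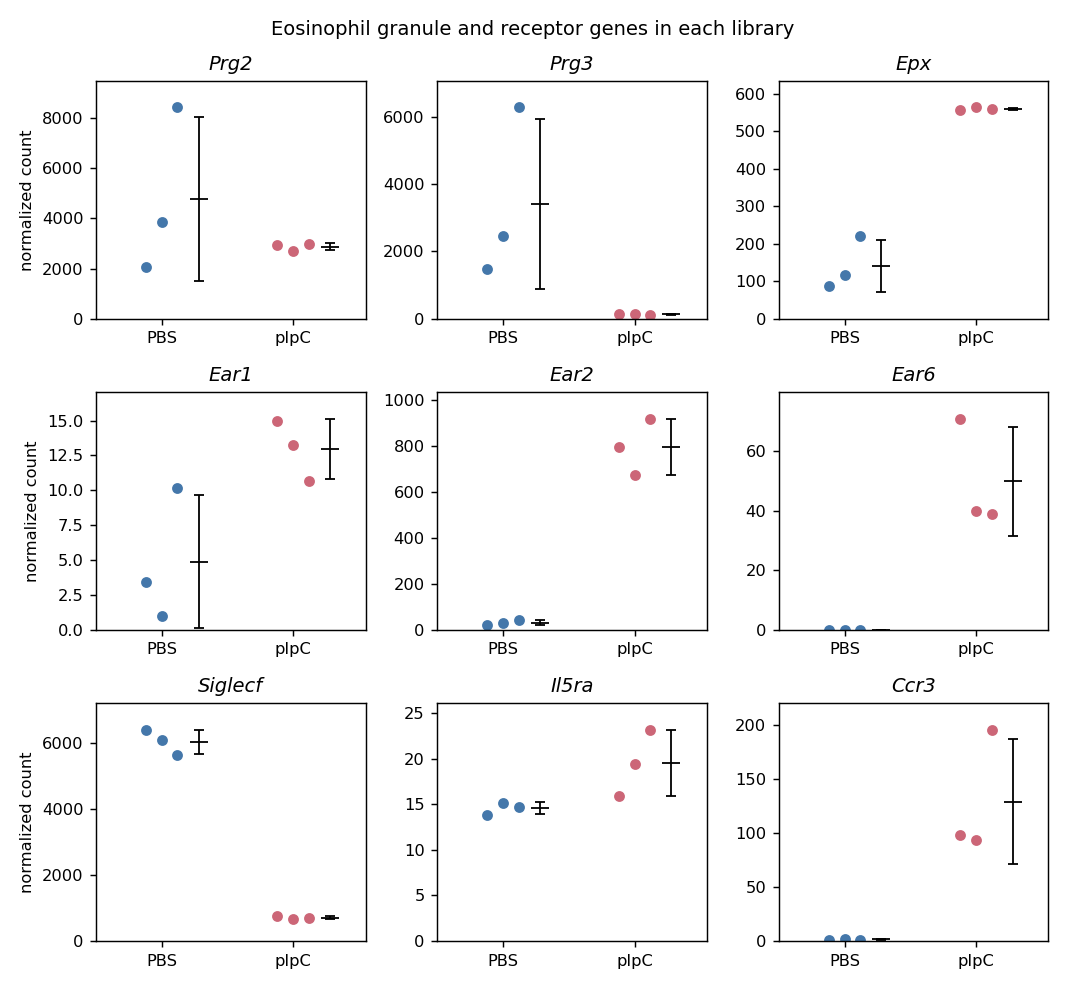
Normalized count (linear axis from 0, one scale per panel) of each of the 9 genes in the 3 PBS libraries (blue) and the 3 libraries labelled pIpC (red), replicates 1 to 3 from left to right; the black bar and whiskers give the mean ± SD (n = 3). Epx, Ear2, Ear6 and Ccr3 stand higher and Prg3 and Siglecf lower in the libraries labelled pIpC, and Prg2 overlaps between the groups.

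**Figure D2:**
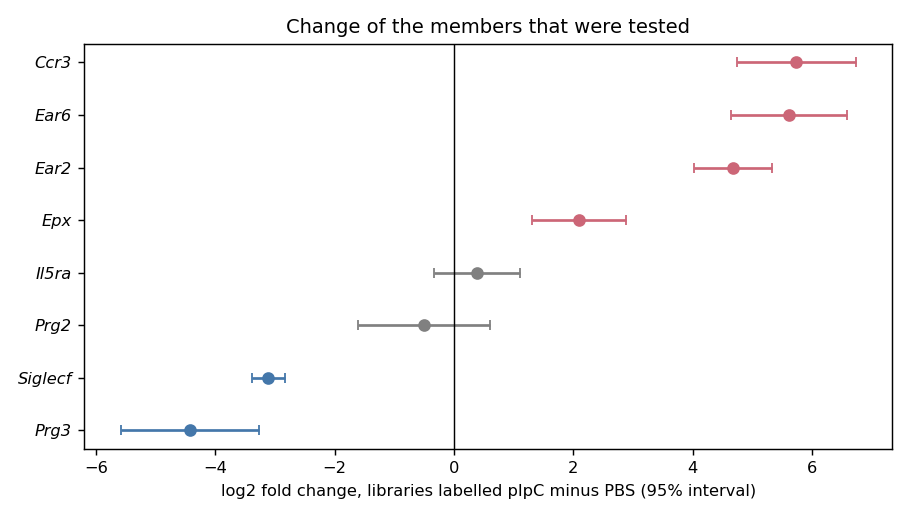
Log2 fold change, on the log2(normalized count + 1) scale, of the 8 tested members between libraries labelled pIpC and PBS, with the 95% interval from limma (n = 3 and 3); red marks members that passed as higher, blue as lower, grey those that did not pass. The estimates run from -4.42 for Prg3 to 5.74 for Ccr3, and the intervals of Prg2 and Il5ra span 0.

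Among the granule proteins, Prg2 encodes major basic protein, the arginine-rich protein of the granule core. It lies on chromosome 2 of GRCm38 from 84980461 to 84983632 on the plus strand, with 6 exon blocks of 838 bases in all. PBS replicates 1, 2 and 3 gave normalized counts of 2060.1, 3864.5 and 8432, against 2929.3, 2713.6 and 2977.4 in the libraries labelled pIpC. The PBS values enclosed those labelled pIpC, with a highest value 4.09 times the lowest, so that the groups overlapped. The means were 4786 ± 3284 and 2873 ± 140 (SD, n = 3), and the log2 fold change was -0.50 (95% interval -1.61 to 0.60, limma adjusted p = 0.430). Without PBS replicate 3 it was 0.03 (limma adjusted p = 0.928), and without PBS replicate 1 it was -0.99, which passed the threshold as lower (limma adjusted p = 0.0646). Which PBS library is kept thus decides both the sign and the call of Prg2, although it was among the most abundant genes per length in both groups.

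Prg3, the gene of the second major basic protein, starts 4582 bases beyond the end of Prg2 on the same strand (chromosome 2, 84988215 to 84993886; 6 exon blocks, 949 bases), and the coding sequences of the 2 genes share 63.64% of aligned bases. Its normalized count was 1487.3, 2452.5 and 6281.9 in the PBS libraries and 141.7, 135.9 and 118 in those labelled pIpC. All libraries labelled pIpC lay below all PBS libraries. The mean fell from 3407 ± 2536 to 131.9 ± 12.4 (SD, n = 3), 25.8-fold lower, with a fitted log2 fold change of -4.42 ± 0.49 (SE, limma adjusted p = 0.000582). Without PBS replicate 3 it was -3.85 (limma adjusted p = 6.69e-07).

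The pair of neighbours can be compared within a library. The ratio of Prg2 to Prg3 within a library was 1.39, 1.58 and 1.34 in the PBS libraries and 20.7, 20 and 25.2 in those labelled pIpC. Within PBS this ratio stayed nearly level although both genes varied about 4-fold between the libraries, and it lay in a separate, higher range in the other group. On the log2 scale the ratio was 0.52 ± 0.12 against 4.44 ± 0.18 (SD, n = 3), a difference of 3.92.

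Epx encodes eosinophil peroxidase, a heme enzyme of the granule matrix that forms hypohalous acids. It lies on chromosome 11 from 87864000 to 87875536 on the minus strand (14 exon blocks, 2737 bases), in one cluster with the related peroxidase genes Lpo, 35.71 kb away, and Mpo, the neutrophil myeloperoxidase, 59.586 kb away. Its normalized count was 87.4, 115.4 and 219.5 in the PBS libraries and 557.9, 564 and 559.9 in those labelled pIpC. The 3 values labelled pIpC were nearly equal and all above the PBS values. The mean rose from 140.8 ± 69.6 to 560.6 ± 3.09 (SD, n = 3), 3.98-fold, with a fitted log2 fold change of 2.10 ± 0.33 (SE, limma adjusted p = 0.00296), and of 2.47 without PBS replicate 3 (limma adjusted p = 1.27e-06). Epx was thus higher where its fellow granule gene Prg3 was lower.

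Epx can be set against its neighbour. Mpo averaged 5112 ± 314 normalized counts in PBS against 136726 ± 7159 (SD, n = 3) with pIpC, and both genes of the cluster outside the members, Mpo and Lpo, were higher (log2 fold changes of 4.74 and 6.01). Lpo was at 9.52, 0 and 0 in the PBS libraries, so that its fitted change depends on the pseudocount. The ratio of Epx to Mpo was 0.0169, 0.0214 and 0.0460 in the PBS libraries and 0.00388, 0.00435 and 0.00410 in those labelled pIpC. The groups did not overlap: per Mpo count, all PBS libraries held more Epx. On the log2 scale the ratio was -5.28 ± 0.75 against -7.93 ± 0.08 (SD, n = 3), lower by 2.65 (exact permutation test, two-sided p = 0.1, the smallest p that 3 against 3 libraries allow); without PBS replicate 3 the difference was -2.22. The ratio of Prg2 to Epx was 23.6, 33.5 and 38.4 in PBS and 5.25, 4.81 and 5.32 in the libraries labelled pIpC, again without overlap.

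**Figure D3:**
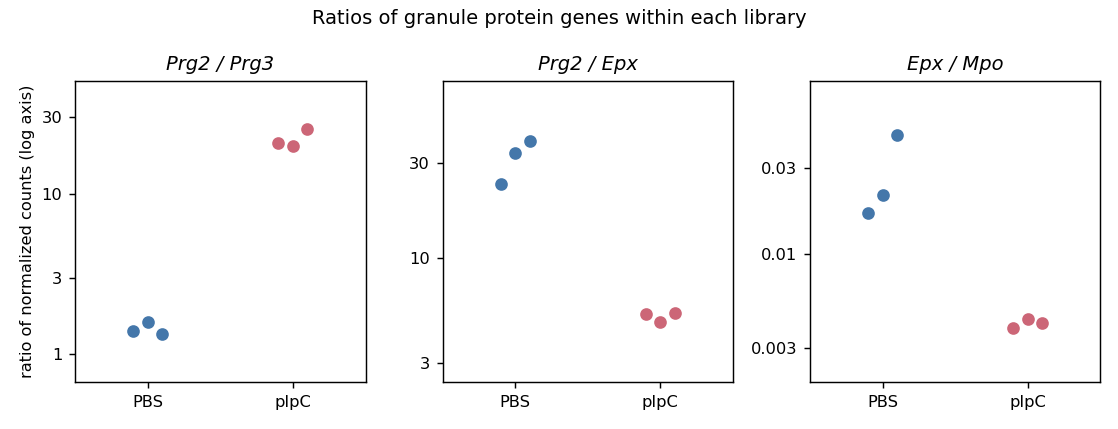
Ratio of normalized counts within each library (log axes) for Prg2 over Prg3, Prg2 over Epx and Epx over Mpo, in the 3 PBS libraries (blue) and the 3 labelled pIpC (red), replicates 1 to 3 from left to right. The first ratio lies between 1.34 and 1.58 in PBS and between 20 and 25.2 in the libraries labelled pIpC, and the other 2 ratios are lower there.

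Of the granule ribonucleases, Ear2 (chromosome 14, 44102654 to 44103534, plus strand, 719 exon bases) had the lowest adjusted p. Its normalized count was 21.6, 29.4 and 41.9 in the PBS libraries and 794.5, 674.3 and 917.7 in those labelled pIpC. The groups were far apart. The mean rose 25.7-fold, from 31 ± 10.2 to 795.5 ± 121.7 (SD, n = 3), with a fitted log2 fold change of 4.68 ± 0.28 (SE, limma adjusted p = 5.17e-05), and of 4.91 without PBS replicate 3 (limma adjusted p = 1.22e-07).

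Ear1 (chromosome 14, 43818765 to 43875517, minus strand, 730 exon bases) is the copy whose coding and promoter letters nearly equal those of Ear2, and 2.33% of its exon bases overlap Ear-ps9. It had normalized counts of 3.46, 1.01 and 10.2 in PBS and of 15, 13.3 and 10.6 in the libraries labelled pIpC, or 14 reads against 39 in all. Its mean of 8.92 over the 6 libraries was under the filter, so that it has no main test. The groups did not overlap but the highest PBS library nearly touched the lowest of the others. The ratio of summed reads over size factors was 2.80 (95% exact binomial interval 1.49 to 5.58, counting error only). PBS replicate 3 held 9 of the 14 PBS reads, and without it the ratio was 5.55 (2.18 to 18.0). With no filter the log2 fold change was 1.57 ± 0.67 (SE, limma adjusted p = 0.142), short of the threshold. Ear2 thus had 50.8 to 86.3 times the normalized count of Ear1 in each library labelled pIpC, and 4.11 to 29 times in the PBS libraries.

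Ear6 (chromosome 14, 51853699 to 51854643, plus strand, 1 exon of 945 bases) had no read in any PBS library and normalized counts of 70.9, 39.8 and 38.7 in those labelled pIpC, 150 reads in all. Against a floor of 3 reads in each PBS library, its mean of 49.8 ± 18.3 (SD, n = 3) was at least 16.5-fold higher. Ear6 passed the filter only through the libraries labelled pIpC. It passed the test as higher (limma adjusted p = 0.000112, and 1.07e-05 without PBS replicate 3), while its fitted log2 fold change of 5.61 depends on the pseudocount. In the libraries labelled pIpC, Ear2 exceeded Ear6 by 11.2, 16.9 and 23.7 times, with both on the scale of normalized counts of transcripts of similar length.

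The other RNase A genes help to place the Ear members. Of 19 listed, 12 were in the table and 3 were tested: Rnase6 (log2 fold change 3.04, from 24.0 ± 5.90 to 200.1 ± 3.28, SD, n = 3), an antimicrobial ribonuclease of myeloid cells, and Rnase4 (1.24) were higher, and Ang, angiogenin, did not pass (0.08). Of these 12, 9 were at 0 in every PBS library, with Ear10, Ear14, Rnase2a and Rnase2b among them. In the libraries labelled pIpC 6 of the 12 were at 0 throughout, Ear14 among them. Ear10, with which Ear1 and Ear2 share windows, had normalized counts of 1.00, 2.04 and 4.83 in the libraries labelled pIpC.

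Among the receptors, Siglecf was the clearest fall. Siglec-F binds sialylated glycans and carries an inhibitory motif, and the gene lies on chromosome 7 from 43351341 to 43359531 on the plus strand (9 exon blocks, 2790 bases). Its normalized count was 6391, 6089 and 5658 in the PBS libraries and 747.5, 654.9 and 693.3 in those labelled pIpC. Both groups were tight and far apart. The mean fell from 6046 ± 368 to 698.6 ± 46.5 (SD, n = 3), 8.65-fold lower, with a fitted log2 fold change of -3.11 ± 0.12 (SE, limma adjusted p = 1.68e-05). Without PBS replicate 3 it was -3.16 (limma adjusted p = 1.38e-08), and across the fits with each library left out it stayed between -3.16 and -3.07, so that this result is as large without any 1 library.

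Ccr3, the receptor for eotaxins through which eosinophils are drawn into tissue, lies on chromosome 9 from 124021972 to 124031689 (plus strand, 2 exon blocks, 3272 bases). It had normalized counts of 0.87, 2.02 and 1.13 in PBS, 4 reads in all, and of 97.8, 93 and 195.3 in the libraries labelled pIpC, 391 reads in all. It was thus close to 0 in PBS and counted in all libraries of the other group, with pIpC replicate 3 highest. The ratio of summed reads over size factors was 98.2 (95% exact binomial interval 38.0 to 362, counting error only), and Ccr3 passed as higher (log2 fold change 5.74, SE 0.42, limma adjusted p = 0.00011; 5.68 without PBS replicate 3). Like Ear6, it passed the filter only through the libraries labelled pIpC.

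Il5ra, the ligand-binding chain of the interleukin 5 receptor, was low throughout (chromosome 6, 106710357 to 106749037, minus strand, 13 exon blocks, 3575 bases). Its normalized count was 13.8, 15.2 and 14.7 in PBS and 16, 19.4 and 23.2 in the libraries labelled pIpC, from 44 and 59 reads. The groups did not overlap, but their means of 14.6 ± 0.68 and 19.5 ± 3.62 (SD, n = 3) differed by a log2 fold change of only 0.38 (95% interval -0.33 to 1.10, limma adjusted p = 0.356), and 0.39 without PBS replicate 3. The adjusted p misses the threshold, which does not show that the level was the same. Among the members, Il5ra had the lowest level per kilobase of exon in the libraries labelled pIpC.

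Without regard to the test, PBS and pIpC values did not overlap in 8 of the 9 members, 6 of them higher and 2 lower with pIpC. Over all genes tested 56.8% did not overlap, 30.5% higher and 26.3% lower. The 6 higher members include Ear1, which is not among the genes tested. They also include Ear6 and Ccr3, at or near 0 in PBS, which passed the filter only through the libraries labelled pIpC. The count is therefore descriptive.

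Per length, the order of the members changed between the groups. In PBS the mean level per kilobase of exon (normalized count per kb) was 5711 ± 3919 for Prg2, 3590 ± 2672 for Prg3 and 2167 ± 132 for Siglecf (SD, n = 3), all above the 96th percentile of genes, and these 3 overlapped in sequence from one to the next. Far below them came Epx at 51.4 ± 25.4 and Ear2 at 43.0 ± 14.2, which overlapped, then Ear1 at 6.69 ± 6.51 and Il5ra at 4.08 ± 0.19, which overlapped, Ccr3 at 0.41 ± 0.19, and Ear6 at 0. In the libraries labelled pIpC Prg2 still led at 3429 ± 168 per kb, followed by Ear2 at 1106 ± 169, Siglecf at 250.4 ± 16.7, Epx at 204.8 ± 1.13 and Prg3 at 138.9 ± 13.04. The lowest were Ear6 at 52.7 ± 19.3 and Ccr3 at 39.3 ± 17.7, which overlapped, Ear1 at 17.8 ± 2.99 and Il5ra at 5.46 ± 1.01. The PBS libraries thus combined high Prg2, Prg3 and Siglecf with Ear6 at 0 and Ccr3 near 0, and the libraries labelled pIpC combined higher Ccr3, Ear2 and Ear6 with Siglecf and Prg3 at a fraction of their PBS level. The members therefore do not behave as one eosinophil program in these data and are described as single genes, not as a measure of eosinophils.

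The spread between PBS libraries differed from member to member. Of the 9 members, 5 (Prg2, Prg3, Epx, Ear1 and Ear2) were highest in PBS replicate 3 among the PBS libraries, and 45.2% of all genes tested were so too, so that this count says little about the members. The highest PBS value was 4.22 times the lowest for Prg3, 4.09 times for Prg2 and 2.51 times for Epx, where the median over all genes was 1.66 on counts with 1 added and 8.02% of genes reached 4. Among the receptors it was 1.13 times for Siglecf, 1.10 times for Il5ra and, from 4 reads, 2.34 times for Ccr3. In the libraries labelled pIpC the same ratio was 1.10 for Prg2, 1.20 for Prg3 and 1.01 for Epx, with a median over all genes of 1.19. Of the 12 lineage regulators, 10 were highest in PBS replicate 3, among them Cebpe, a factor required for granulocyte granules, at 2677, 3464 and 7483. Of the 8 neutrophil markers, 3 were highest in replicate 3 and 5 in replicate 2. The part of replicate 3 in the members' spread was not tested.

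**Figure D4:**
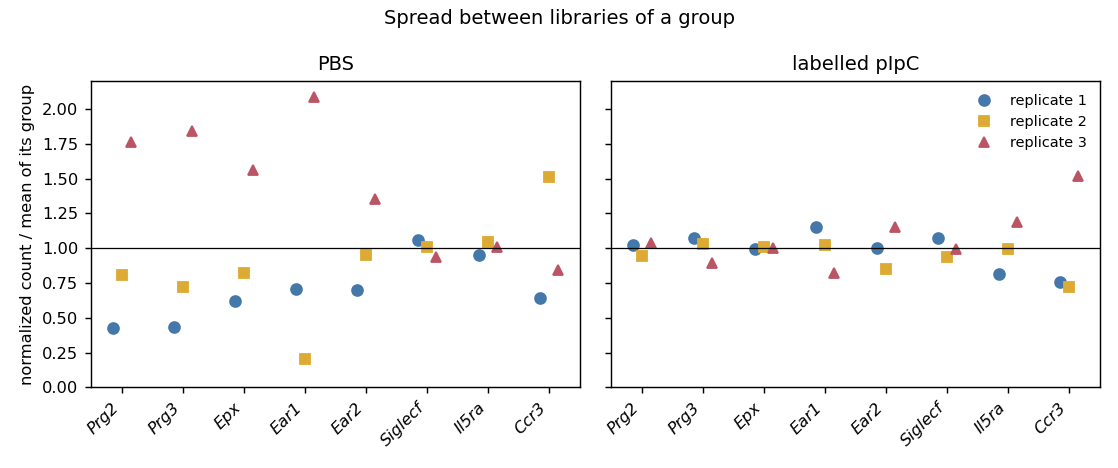
Normalized count of each library divided by the mean of its group, for the 8 members with reads in both groups, in PBS (left) and in the libraries labelled pIpC (right); marker shape gives the replicate and the line marks the group mean. PBS replicate 3 lies above the other PBS libraries for Prg2, Prg3, Epx, Ear1 and Ear2 but not for Siglecf, Il5ra or Ccr3, and for those 5 genes the libraries labelled pIpC lie closer together.

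Of 12 regulators of the eosinophil lineage, 7 were higher, 2 lower and 3 did not pass, with a median log2 fold change of 0.42 against 0.015 over all genes. Over all genes tested, 25.0% passed as higher and 20.4% as lower, the shares against which the count of each related list is to be read. Gata1, the factor needed by the eosinophil, erythroid and mast cell lineages, rose from 14.0 ± 1.60 to 259.6 ± 46.4 (SD, n = 3), with a fitted log2 fold change of 4.11 (limma adjusted p = 5.27e-05). Gata2 fell from 1407 ± 184 to 617.9 ± 20.4 (log2 fold change -1.18), and Id1, an inhibitor of basic helix-loop-helix factors, fell most in the list (-1.45). Cebpe was higher at 0.99 (limma adjusted p = 0.0723) and Cebpa at 0.53, while Spi1, Cebpb and Xbp1 did not pass.

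Interleukin 5 signals through Il5ra paired with the common beta chain and JAK and STAT proteins. Of 10 listed genes, which include chains of related receptors as well as signalling proteins, 5 were higher, 2 lower and 3 did not pass. Their median log2 fold change was 0.57 against 0.015 over all genes, of which 45.3% passed. Csf2rb, the common beta chain, was higher (0.86, from 3395 ± 402 to 6151 ± 772, SD, n = 3), and Il3ra, the interleukin 3 receptor chain that shares it, fell most (-1.48). The beta chain was therefore abundant in all libraries while Il5ra was scarce in all. Of 7 ligand genes only Ccl5 was tested (3.54, higher), and Il5, Ccl11 and Ccl7 were at 0 in every PBS library. In the libraries labelled pIpC these 3 averaged 0.66, 0 and 1.00 normalized counts. Il33, which is in the list as the ligand of Il1rl1 and not of a member, had normalized counts of 10.4, 11.1 and 7.92 in PBS and of 0, 2.04 and 0 in the libraries labelled pIpC.

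Siglecf and Ccr3 can be read against their families. Of 8 other Siglec genes, 7 were tested, 5 of them higher and 2 lower: among those with a mean of at least 50, Siglec1, a macrophage receptor, rose most (4.81; Siglech, under that mean, was at 4.92), and Mag fell most (-3.53). Cd33, the most abundant Siglec, fell from 21504 ± 6416 to 8906 ± 1305 (SD, n = 3; -1.23). The ratio of Siglecf to Cd33 was 0.238, 0.262 and 0.393 in PBS and 0.1, 0.0702 and 0.0697 in the libraries labelled pIpC, so that Siglecf was lower also relative to Cd33. Of 7 other chemokine receptors of the Ccr3 gene cluster, 5 were tested, with 3 higher and 2 lower. Ccr2, 70.26 kb from Ccr3, was higher by 0.82, and Ccr1 and Ccrl2 were lower, at -0.74 each.

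Other eosinophil genes were sparse. Of 9 listed, 2 were tested: Il1rl1, the interleukin 33 receptor of eosinophils, basophils and mast cells, rose from 1.00 ± 0.13 to 222.6 ± 44.3 (SD, n = 3; fitted log2 fold change 6.78, which depends on the pseudocount), and Alox15 did not pass (0.30). Hrh4, Ptgdr2, Ear10, Ear14, Rnase2a and Rnase2b were at 0 in every PBS library. They were near 0 in the libraries labelled pIpC as well, with means of at most 2.63 normalized counts (Ear10) and 0 for Ear14.

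**Figure D5:**
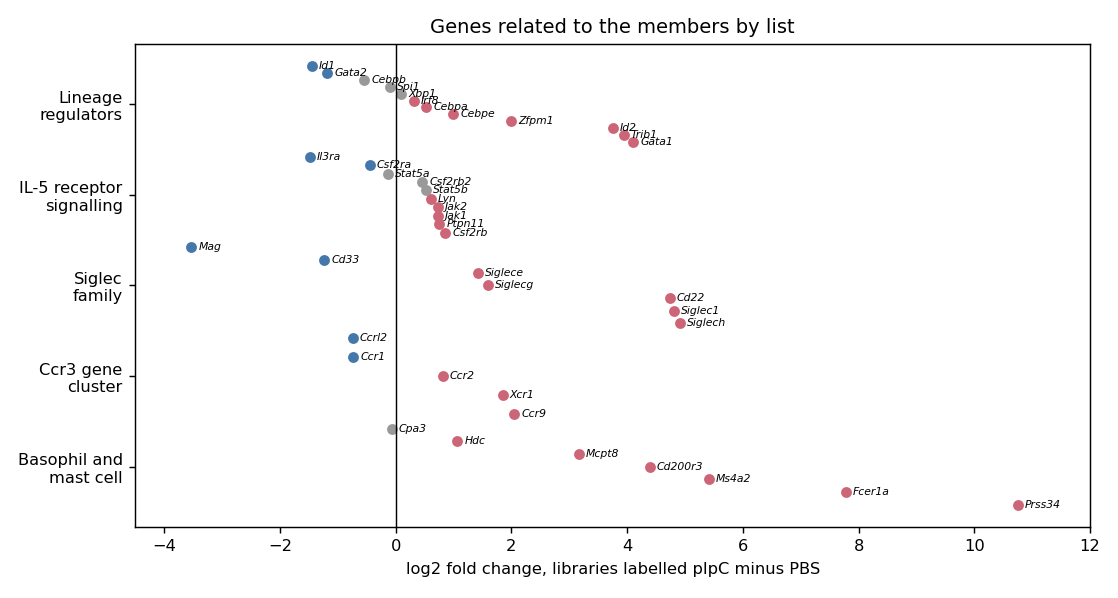
Log2 fold change, on the log2(normalized count + 1) scale, between libraries labelled pIpC and PBS of the tested genes in 5 lists related to the members; red points passed the threshold as higher, blue as lower and grey did not pass. Lineage regulators, Siglec genes and receptors of the Ccr3 cluster lie on both sides of 0, while the basophil and mast cell list reaches 10.76 for Prss34.

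Markers of other cells moved with the same labels, where 25.0% of all genes tested passed as higher and 20.4% as lower. Of 8 basophil and mast cell markers, 7 were tested, 6 higher and 1 not passed (Cpa3, -0.06), with a summed normalized count of 3153 to 5172 in PBS and 10359 to 12498 in the libraries labelled pIpC. Prss34, a basophil protease, had 1 read in PBS and 2213 ± 418 (SD, n = 3) normalized counts in the other group, Fcer1a was at 0 in PBS, and Tpsb2, a mast cell tryptase, was at 0 in all libraries. Of the genes that basophils also express, Ccr3 and Il1rl1 were higher with the same label, whereas Prg2, the major basic protein gene, did not pass (-0.50). All 8 neutrophil markers were higher, with sums of 9150 to 16679 in PBS and 1.204e+06 to 1.231e+06. All 7 erythroid markers (sums of 17.3 to 38.5 against 2719 to 4087), all 8 B cell markers (156 to 344 against 3645 to 4078) and 6 of 6 tested T and NK cell markers (178 to 317 against 3861 to 4493) were higher; Slc4a1 was at 0 in PBS. Of 7 macrophage markers tested, 4 were higher and 3 lower, with sums of 11166 to 15253 against 6249 to 7905. Adgre1, a defining macrophage marker that eosinophils also carry, fell with Siglecf (-3.80), and Mrc1 rose (4.55). Marco was at 0 in PBS and averaged 0.66 normalized counts in the libraries labelled pIpC. Of 8 monocyte markers, 4 were higher and 2 lower, with sums of 28937 to 31881 against 40542 to 45663. Of 4 genes of the MLL-AF9 program, 3 were lower and 1 higher, with sums of 10125 to 10484 against 512.0 to 569.1; Hoxa10 fell from 1537 ± 135 to 17.8 ± 4.87 (SD, n = 3; log2 fold change -6.38). The part of these other cell types, and of the lower MLL-AF9 program, in the values of the 9 members was not tested.

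Finally, for each tested member the gene outside the list with the most similar profile was sought by Pearson's r on log2(normalized count + 1) over the 6 libraries, among 10482 genes with a mean of at least 100. These were Umad1 for Prg2 (r = 0.993), Zfyve21 for Prg3 (0.9985), Dhrs7 for Epx (0.999), Ffar2 for Ear2 (1.000), Endod1 for Ear6 (0.999), Sgip1 for Siglecf (1.000), Vav1 for Il5ra (0.976) and Dbf4 for Ccr3 (1.000). With 6 libraries in 2 groups, a high r is common for a gene whose groups lie far apart: between 10 genes (Il5ra) and 1056 genes (Ear6) exceeded 0.95. Pearson's r takes no account of the size of a change: Dbf4 had a log2 fold change of 0.40, against 5.74 for Ccr3. For Prg2, whose groups overlap, 92 genes exceeded 0.95. Umad1 had normalized counts of 368.6, 436.3 and 573.8 in PBS and 421.2, 407.7 and 410 in the other group, so that it too was highest in PBS replicate 3, over a narrower range than Prg2.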

How the data were processed

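RNA of 6 libraries (3 PBS, 3 labelled pIpC) was analysed from 1 table of gene counts that the authors deposited after division by 1 size factor per library, a signal whose values above 0 were all whole numbers of reads once divided by the smallest step (100% in each library, tolerance 0.02), so that reads were recovered. Per the paper's methods the reads were processed with nf-core/rnaseq (STAR, RSEM) and DESeq2. The submitters' processing notes name HISAT2 2.2.1, SAMtools, featureCounts (Subread), edgeR and GRCm38. The paper and the labels also differ on the sorted cells (c-Kit+ or GFP+), the library type (stranded or unstranded) and the irradiation of recipients.

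Genes averaging 10 or more normalized counts (15020 of 55487) were tested with limma 3.58.1 (R 4.3.3) on log2(normalized count + 1) with a trend of variance on intensity and without a replicate block. P-values were adjusted by Benjamini-Hochberg over these genes, and 0.1 was the limit, after the study's methods. The test was tested on simulated data. The ratio of Epx to Mpo had an exact permutation test. Alternatives were a smaller (0.1) or larger (10) pseudocount, the filter removed or raised to 50, quantile normalization, scaling to library totals, each library left out, a replicate block, no intensity trend, edgeR 4.0.16 and DESeq2 1.42.0 on recovered reads, and an adjusted p under 0.05.

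Positions, exons and coding sequences came from GENCODE M21 (55141 genes given a symbol), and promoters from RefSeq (GRCm38.p6); coding sequences and promoter windows were aligned in pairs with Biopython 1.88. Protein sequences were not used here. A few genes of the related lists are not reported here and were left out of the counts of those lists. The members and the related gene lists were chosen with earlier results of these data known. The genes named are all 9 members, Brd9, the largest rise and the largest fall of each related list with a mean of at least 50, those whose values stand beside a result, and for each tested member the gene most like it with a mean of at least 100; other names from the lists are given to show their counts and were chosen after their values were seen. Counts of 0 and intervals from reads cover counting error only, as reads without molecular identifiers are not independent molecules.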

Additional observations from a re-analysis of the deposited data

How the results depend on the processing

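Of the members, 6 passed the threshold, 4 higher and 2 lower, under every alternative run except for 2. With a mean of at least 50 there were 5, because Ear6 was no longer tested. Il5ra was not tested there either, but it had not passed in the main fit. Without PBS replicate 1 there were 7, as Prg2 passed as lower (-0.99). Across the fits that left out 1 library the count of members was 6 to 7 and that of all genes 4650 to 9783, against 6808. Over 134 comparisons of results with alternatives, 131 kept direction and side of the threshold, 1 became stronger and 2 changed sign. Il5ra was at -0.21 under quantile normalization, in which the median of all genes shifted to -0.12 (-0.123 when scaled to library totals), and Prg2 lay between -0.99 and 0.03 in the fits without 1 library, changing sign without PBS replicate 3 (0.025); the cause was not tested. The fitted change of Ear6 ran from 2.54 to 8.90 and that of Ccr3 from 3.54 to 6.6 with the pseudocount or the tool. The difference in the Epx to Mpo ratio stayed between -2.94 and -2.22, and the exact permutation test of 2 against 3 libraries cannot go below p = 0.2.

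The deviations of libraries with the same number from their group means correlated at -0.117, 0.143 and 0.041. No pairing by number was seen, which does not show that the libraries are unpaired. With a replicate block, 6 members and 6095 genes passed and the Epx to Mpo difference was -2.65 (exact p = 0.25, the smallest that 3 pairs allow); no member's call changed.

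Depth limits Ear1 (14 and 39 reads), Il5ra (44 and 59 reads) and the PBS values of Ccr3 (4 reads) and Ear6 (0 reads).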
